A study of Mus musculus with 22 samples.

Results

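Rods of the retina at P30 were compared between AdipoR1–/– (KO) and WT mice in single-cell libraries. Rods were chosen by measured values. A cell was taken as a rod where at least 4 of Pde6a, Pde6b, Nr2e3, Nrl, Cnga1, Rp1 and Guca1b had a value above 0, and where fewer than 2 of Arr3, Gnat2, Pde6c, Trpm1, Pcp2, Slc6a9, Gad1, Rlbp1, Glul and Slc17a6 had one. This chose 2969 of 6025 cells: 1215 of 2558 in the WT library (47.5%, 95% interval 45.5 to 49.5) and 1754 of 3467 in the KO library (50.6%, 48.9 to 52.3). The study profiled 26764 cells of both genotypes at P19, P25 and P30 in 6 libraries, and bulk retina at P30 in 4 libraries per genotype. KO mice carried the Adipor1tm1Dgen allele, backcrossed to C57BL/6J, and WT mice were C57BL/6J. The paper also backcrossed the allele to an albino B6 background. Both sexes were used, and each single-cell library was made from 4 pooled retinae. ADIPOR1 is a membrane receptor for adiponectin that also cleaves ceramides, lipids that promote cell death when they build up. Rods turn light into a voltage signal through transducin, phosphodiesterase and a cation channel gated by cyclic GMP, all held in the outer segment. Loss of ADIPOR1 leads to progressive death of photoreceptors, and P30 was sampled as an advanced stage of it.

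The rods of the 2 genotypes were of similar depth. They held a median of 1030 UMIs per cell in WT (5th to 95th percentile 812 to 2132) and of 1071.5 in KO (782 to 2753), and 1480479 and 2374247 UMIs when summed. Each genotype had 1 library at P30, so no test was made between the P30 rods. The exact intervals given in brackets for sums, shares and ratios cover counting error only, and not the differences between mice. The P30 libraries were sequenced in another run, on another instrument and with fewer reads than those of P19 and P25, so age and batch cannot be told apart. Of the barcodes, 15 occurred in both P30 libraries, and 4 of these marked rods in both. Xist, which is expressed from the inactive X chromosome of females, had 0 UMIs in the P30 rods of either genotype (with 0 of 1171 WT and 1625 KO rods after thinning, 3 cells of the total allow a UMI in up to 0.256% and 0.185%), while the Y-linked Ddx3y had 122 and 164, so neither pool showed RNA of female rods. At P25 the WT rods held 6024 Xist and 0 Ddx3y UMIs and the KO rods 4 and 312, so sex and genotype cannot be told apart at that age.

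Adipor1 (chr1:134415378-134433351, GRCm38) was examined first. Its summed UMIs were 1020 and 251 in WT and KO rods, or 689 (95% interval 647 to 733) and 106 (93.0 to 119.6) CPM (UMIs per 1000000 rod UMIs of the library), a log2 ratio of -2.70 [95% interval -2.91 to -2.50]. The ratio was -2.60 at P19 and -1.55 at P25. When each cell was thinned to 800 UMIs, at least 1 Adipor1 UMI was found in 42.6% (39.8 to 45.5) and 8.92% (7.58 to 10.4) of WT and KO rods. Without thinning the shares were 54.2% and 13.2%, and in thinned bipolar cells 12.3% and 1.18%. Adipor1 was thus the lowest of all 3055 genes tested, yet some RNA was counted in KO rods. The tags of these libraries come from the 3′ end and may lie outside the deleted part of the gene, so this level checks neither the deletion nor the genotype. Adipor2, the other adiponectin receptor, had 35 and 45 UMIs (log2 ratio -0.32 [95% interval -0.99 to 0.36]). The lysosomal ceramidase Asah1 had 83 and 166 UMIs (0.31 [-0.07 to 0.72]) and the alkaline ceramidase Acer3 14 and 15 (-0.59 [-1.73 to 0.58]). All 3 intervals included 0 at P30, while that of Asah1 at P19 lay just above it (0.47 [0.02 to 0.94]). Among 13 enzymes and receptors of sphingolipids that were tested, the median log2 ratio was -0.06. Only Cerkl, a ceramide kinase-like gene of photoreceptors that was named after its value was seen, was past 1.5-fold upward (1.43 [1.10 to 1.78]) and only Adipor1 itself downward (7.69% each, beside 5.99% and 3.83% of all genes), while Psap, the precursor of the saposins, and Sptssa, a small subunit of serine palmitoyltransferase, lay within 1.5-fold (0.49 and 0.03). A targeted allele can carry flanking DNA of its strain of origin, whose part here was not tested. Of 13 genes tested within 5 Mb of Adipor1, 4 were past 1.5-fold, all lower in KO rods (Pfkfb2, Yod1, Shisa4 and Gm4258, named after their values were seen), beside 9.76% of the 3032 genes with a known position. Over the whole of chromosome 1 the share was 11.9% of 168 genes.

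Rod genes that the rule did not use showed that the chosen cells were rods in both libraries. After thinning, Sag, the arrestin of rods, was counted in 98.6% and 99.4% of WT and KO rods, beside 27.5% and 40.0% of bipolar cells. The share of bipolar cells with Sag was used as a background level, and the rods lay far above it. The source of the Sag RNA in bipolar cells, which were chosen to hold fewer than 4 rod genes, was not tested. Near the threshold, the 215 WT and 430 KO cells with exactly 4 rod genes held 4784 and 10294.5 CPM of Sag, and the 108 and 231 cells with exactly 3 held 2781 and 8321. With 1 gene of another cell type Sag reached 7691 and 12001, and with 2 it reached 4212 and 6909.7. The cells with exactly 4 or 3 rod genes were taken whatever genes of other cells they held. Fewer than 2 genes of other cells were held by 162 WT and 350 KO cells with 4 rod genes. Among those with 3 rod genes this held for 50 and 178. The edge of the rule was therefore gradual, but these unlike sets do not allow it to be compared between the genotypes. The genes of the rule chose the cells, so their values are a description; they were left out of the counts and medians of gene lists. The counts over all genes hold 9 of them, of which Nrl and Glul were past 1.5-fold lower. All 7 rod genes were lower in KO rods: Nrl, the transcription factor that makes a photoreceptor a rod, at 1767 and 1121 CPM (log2 ratio -0.66), Rp1, of the axoneme, at 1989 and 1429 (-0.48), and Pde6a, the alpha subunit of phosphodiesterase, at 872 and 638 (-0.45). Smaller differences were seen in Pde6b (-0.26), the beta subunit, Guca1b (-0.24), an activator of guanylate cyclase, Cnga1 (-0.14), the alpha subunit of the channel, and Nr2e3 (-0.06), a nuclear receptor that represses cone genes.

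Of the 3055 genes with at least 200 UMIs over both rod groups, 300 (9.82%) differed by at least 1.5-fold, 183 higher (5.99%) and 117 lower (3.83%) in KO rods, and the median log2 ratio over all was 0.04. The number depends on the UMIs asked for, since a gene with few UMIs passes 1.5-fold more easily. By the same measure 169 genes were higher (4.70%) and 142 lower (3.95%, together 8.66% of 3592) at P19, and 408 higher (8.48%) and 448 lower (9.31%, together 17.8% of 4811) at P25. Of the 183 higher genes, 162 had at least 200 UMIs in P25 rods, where 139 were above 0 and 100 past 1.5-fold upward. At P19 the same held for 126, 99 and 47 genes. Of the 117 lower genes, 23 of 109 were past 1.5-fold downward at P25 and 25 of 107 at P19. A gene almost silent in WT reaches 200 UMIs only where it is high in KO, so the shares of the 2 directions cannot be compared. Bipolar cells of the same P30 libraries had 11 genes higher and 22 lower among 1083 (together 3.05%). Müller glia had 57 and 78 among 925 (together 14.6%), beside 9.82% in rods. Both types held fewer UMIs in sum than the rods, so other sets of genes reached 200 UMIs and the shares are not strictly comparable. The plot of summed UMIs shows the higher genes spread over low and middling WT levels, and the lower ones close to the diagonal.

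**Figure D1:**
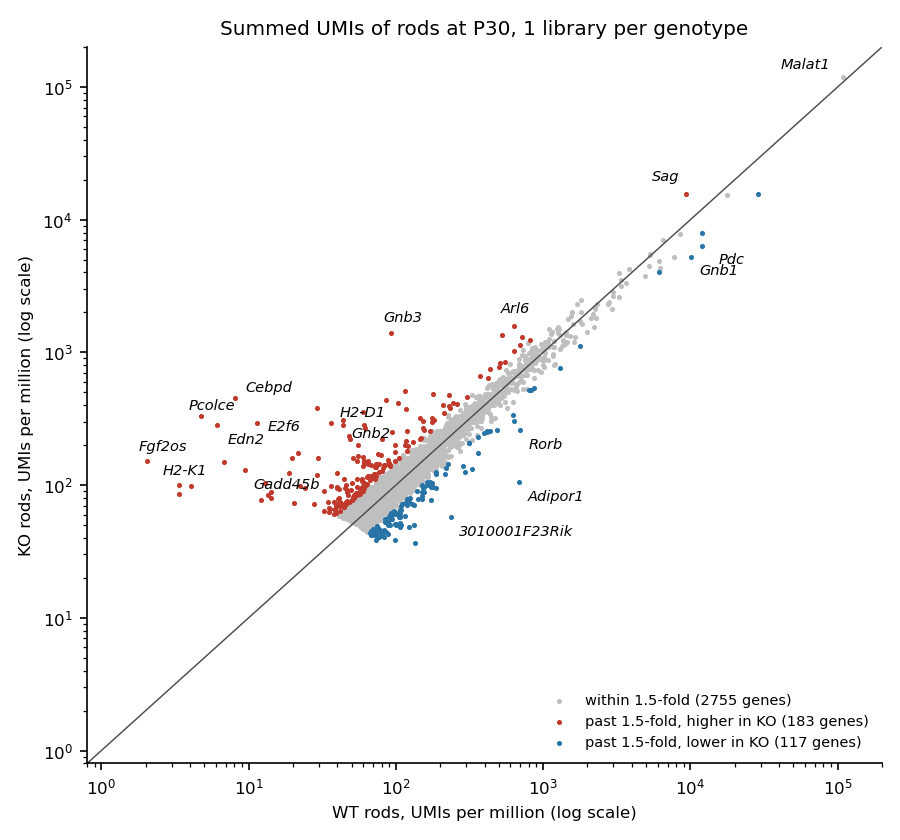
Summed UMIs, as CPM, of 3055 genes in WT rods (x axis) and KO rods (y axis) at P30, both on a log scale, with 1 library per genotype. Red points are 183 genes past 1.5-fold and higher in KO, blue points 117 genes past 1.5-fold and lower, grey points the others, and the line marks equal levels.

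The largest ratios belonged to genes that were almost silent in WT rods. Edn2 (chr4:120161206-120167360), which encodes endothelin 2, a peptide that injured photoreceptors release, had 9 and 671 UMIs, or 6.08 (95% interval 2.78 to 11.5) and 283 (262 to 305) CPM (log2 ratio 5.46 [95% interval 4.61 to 6.67]). Cebpd (chr16:15887286-15891031), a transcription factor of the acute phase response, was at 8.11 and 449.8 CPM (5.74 [4.98 to 6.75]). Pcolce, an enhancer of procollagen cleavage, had 7 and 785 UMIs (6.03 [5.08 to 7.45]) and was the highest of all genes tested. Fgf2, a growth factor that protects photoreceptors, went from 6 to 141 UMIs (3.76 [2.72 to 5.34]), and Fgf2os, on the opposite strand of the same locus, from 3 to 361 (6.01 [4.67 to 8.51]), so the 2 strands differed together. Bcl3, a nuclear partner of NF-kB, had 2 and 89 UMIs (4.48 [2.90 to 7.86]), Socs3, which damps cytokine receptors, 3 and 70 (3.65 [2.26 to 6.17]), and Stat3, which those receptors activate, 27 and 134 (1.61 [1.03 to 2.28]). None of these 3, nor Fgf2, reached the 200 UMIs asked of the genes tested. E2f6, a repressor of the E2F family, reached 4.65, Lin7b, a scaffold of cell junctions, 4.40, Gadd45b, a stress sensor, 3.73, and 2900057B20Rik and 6430562O15Rik, which have no common name, 4.52 and 3.70. Most of these genes were already higher at P19 and more so at P25: Edn2 had log2 ratios of 2.98 and 6.62, Cebpd of 3.28 and 4.86, Fgf2 of 3.47 and 4.05, and Gadd45b of 2.74 and 3.37.

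Shares of cells showed how widely these RNAs were spread among the rods. After thinning to 800 UMIs, which 1171 WT and 1625 KO rods reached, Edn2 was counted in 0.512% (0.188 to 1.11) and 21.1% (19.1 to 23.2) of WT and KO rods and Cebpd in 0.683% (0.295 to 1.34) and 27.2% (25.0 to 29.4). Without thinning, at median depths of 1030 and 1071.5 UMIs, the shares were 0.741% and 29.6% for Edn2 and 0.905% and 36.8% for Cebpd. In bipolar cells the shares after thinning were 0% and 1.47% for Edn2 and 0.331% and 4.12% for Cebpd. Without thinning, at median depths of 2002.5 and 1527 UMIs, they were 0% and 4.37% for Edn2 and 0.327% and 6.71% for Cebpd. These RNAs were thus rare in bipolar cells of the same KO library and common in its rods. Cebpd was also found in 14.7% and 28.5% of WT and KO Müller glia, which express it themselves. Pcolce was in 0.427% and 23.6% of rods (bipolar cells 0% and 3.53%), E2f6 in 0.683% and 21.8% (1.66% and 2.35%), and Lin7b in 0.427% and 11.0% (2.32% and 2.06%). Gadd45b was in 0.342% and 9.05% of rods (2.32% and 2.94%) and Fgf2 in 0.342% and 4.80% (0% and 1.18%), so all lay above the bipolar background in KO and at or near it in WT rods. Stat3 was in 1.54% and 3.88% of rods and 1.66% and 4.71% of bipolar cells and so did not stand above that background. KO rods with and without Edn2 were then compared. Among 343 KO rods with an Edn2 UMI and 1282 without, Cebpd was found in 31.2% and 26.1%, E2f6 in 24.5% and 21.1%, Gadd45b in 10.2% and 8.74% and Pcolce in 23.9% and 23.6%. Fgf2os and Lin7b differed more, with 15.5% and 9.83% and with 14.3% and 10.1%.

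**Figure D2:**
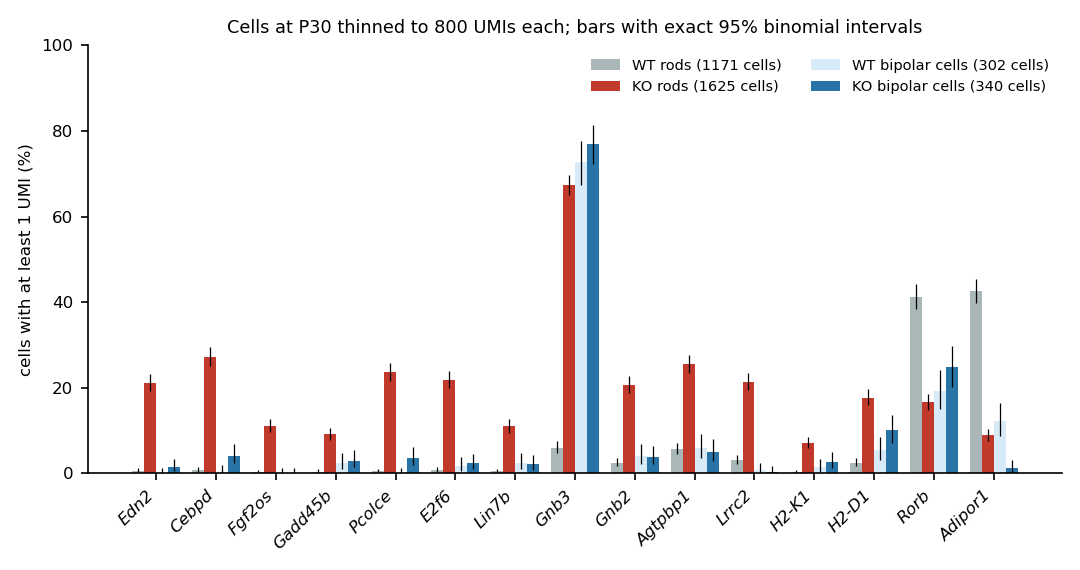
Share of cells with at least 1 UMI of 15 genes at P30 (y axis, in percent), each cell thinned to 800 UMIs, with exact 95% binomial intervals. Grey and red bars are 1171 WT and 1625 KO rods, pale and dark blue bars 302 WT and 340 KO bipolar cells; for Gnb3 the KO rods (67.3%) came close to bipolar cells (77.1%).

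Other genes of this group were named after their values were seen. Tnnt1, a troponin of slow muscle, had 29 and 383 UMIs (3.02 [95% interval 2.50 to 3.64]), but it was in 1.11% and 10.6% of rods, 1.09% and 1.61% of Müller glia and 14.6% and 15.0% of bipolar cells, so KO rods lay above Müller glia but not above bipolar cells. Lrrc2, a mitochondrial protein with leucine-rich repeats, had 65 and 672 UMIs (2.68), and Agtpbp1, which removes glutamates from tubulin and whose loss kills photoreceptors, 89 and 838 (2.55). Lrrc2 was in 3.16% and 21.4% of rods and 0.662% and 0.294% of bipolar cells, and Agtpbp1 in 5.64% and 25.4% and 5.96% and 5.00%, so both stood out in KO rods. Btc, a ligand of the EGF receptor, had 32 and 413 UMIs (2.99), and Atf3 and Junb, transcription factors induced by stress, 19 and 132 and 59 and 291 (2.08 and 1.61). Atf3 had too few UMIs to be tested. Rbm17, a splicing factor, had 154 and 981 UMIs (1.99), the largest ratio among 85 splicing factors. The median of those factors was 0.04, close to all genes, and Ddx5, Rbm39 and Son, the most abundant ones, lay at -0.17, 0.08 and 0.02.

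The lowest genes after Adipor1 included regulators of transcription and of signaling. Rorb (chr19:18930605-19111196), a nuclear receptor that acts upstream of Nrl, was at 694 and 258 CPM in WT and KO rods (-1.43 [-1.57 to -1.28]). Its share after thinning was 41.2% (38.4 to 44.1) and 16.6% (14.8 to 18.5) (bipolar cells 19.2% and 24.7%), so that KO rods came below bipolar cells. 3010001F23Rik, on the X chromosome, had 351 and 136 UMIs (-2.05), Sh2d1a, an X-linked adaptor of immune receptors, 201 and 87 (-1.88), and Tnfaip3, a brake on NF-kB, 197 and 118 (-1.42). Rabgef1, an exchange factor of endosomal RAB5, had 483 and 316 (-1.29), Spry2, a brake on growth factor receptors, 159 and 114 (-1.16), and Nt5e, an enzyme on the rod surface that makes adenosine, 160 and 118 (-1.12). Tnfaip3 and Spry2 were thus lower, whereas Socs3, another brake on signaling, was higher. Lbh, a transcription cofactor (-1.35), and E130310I04Rik (-1.35), D1Ertd622e (-1.24) and Gm47283 (-1.17), of little known function, complete the 12 lowest. Gm47283 is placed on the Y chromosome, but its counts did not follow Ddx3y: WT rods at P25 held 449 of its UMIs and 0 of Ddx3y. Rabgef1 was low at each age (-1.29 at P19 and -0.74 at P25), whereas Rorb was at -0.01 at P19 and -0.85 at P25.

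Phototransduction genes were lower as a group. Of 25 tested without the genes of the rule, 10 were past 1.5-fold downward (40.0%, beside 3.83% of all genes) and 1 upward (beside 5.99%). Above 0 were 6 (beside 1718 of all 3055), and the median was -0.40 beside 0.04 over all genes. Transducin differed in both its main subunits: Gnat1, the alpha subunit, at 6144 and 4065 CPM (-0.60 [-0.64 to -0.55]), and Gnb1, the beta subunit of rods, at 10065 and 5266 (-0.93 [-0.97 to -0.90]). The gamma subunit Gngt1 was less affected (-0.22 [-0.24 to -0.19]), and phosducin, Pdc, which binds the beta and gamma subunits, was at 11939 and 6379.7 (-0.90 [-0.94 to -0.87]). Pde6g, the inhibitory subunit of phosphodiesterase, lay at -0.61 and Pde6d, which carries prenylated proteins, at 0.01. Among the channels and exchangers, Cngb1, the beta subunit of the cyclic GMP channel, was at -0.29, and the sodium, calcium and potassium exchanger Slc24a1 at -0.68. Kcnv2, a modifying subunit of a potassium channel, was at -0.41. The lower levels thus included G protein, effector and exchanger, but not every step.

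The arrestin of rods, Sag (chr1:87803680-87845158), which ends the response to light, went the other way, at 9279 and 15657 CPM in WT and KO rods (0.75 [0.73 to 0.78]). The kinase Grk1 was at -0.43 and its calcium sensor Rcvrn at -0.23, so Sag was alone among these 3 genes of shutoff. Of the complex that ends the transducin signal, Rgs9 and Gnb5 were near 0 (-0.15 and -0.15), but Rgs9bp, its membrane anchor, was at -0.98, the lowest of the list. For the recovery of cyclic GMP, Guca1a, an activator of the cyclases, was at 0.01 and the cyclase Gucy2e at -0.24, while the cyclase Gucy2f, with 79 and 60 UMIs, was not tested (-1.08). Proteins that fold or carry cascade members varied: Aipl1, a chaperone of phosphodiesterase, was at 0.28 and Rd3, which carries the cyclases, at 0.22. Unc119, which carries transducin, was at -0.40, Reep6, of rod membrane traffic, at -0.87, and Ppef2, a phosphatase, at -0.82. At P19 the median of the list was 0.08 and at P25 0.46, with Gnat1 at 0.04 and 0.57. The list was therefore low as a group at P30 only, the age that is also a batch of its own, though Cngb1 (-0.27) and Rgs9bp (-0.19) were below 0 at P19 as well.

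**Figure D3:**
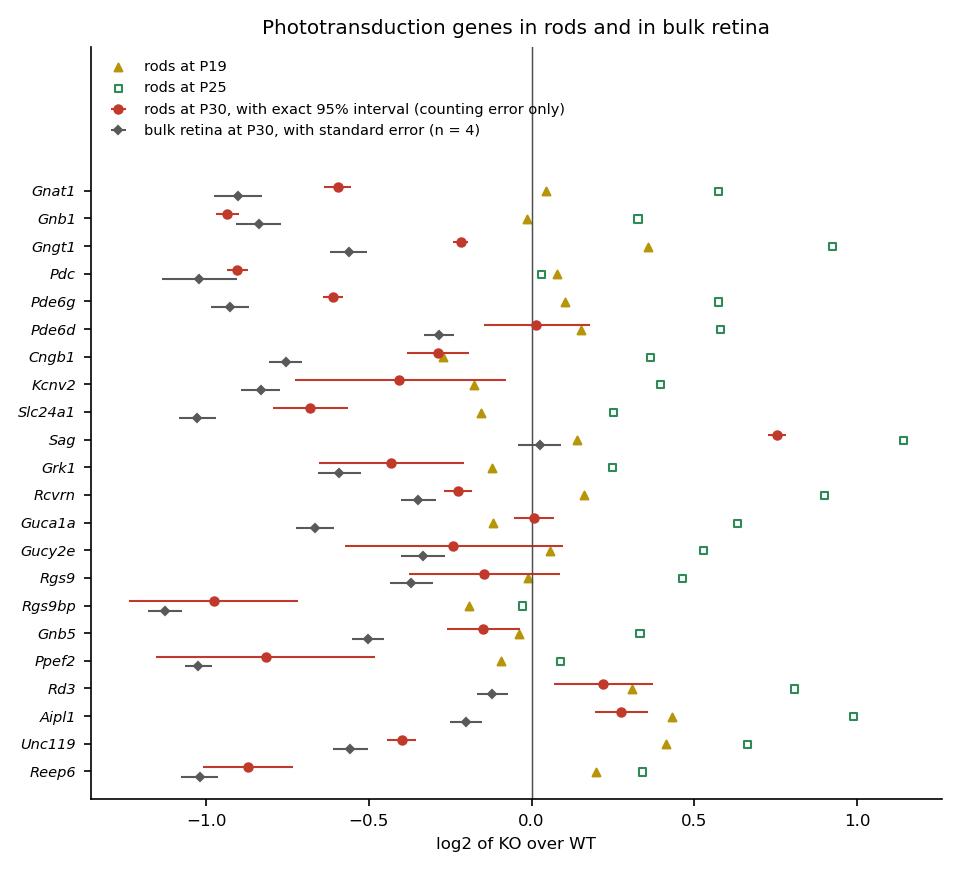
Log2 ratio of KO over WT (x axis) for 22 phototransduction genes (y axis). Red circles are rods at P30 with exact 95% intervals, yellow triangles rods at P19, open green squares rods at P25, and grey diamonds bulk retina at P30 with standard errors (n = 4); in P30 rods Gnb1 was at -0.93 and Sag at 0.75.

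The beta subunits of G proteins differed in opposite directions in KO rods. While Gnb1 was low, Gnb3 (chr6:124834240-124840275), the beta subunit of cones and ON bipolar cells, had 138 and 3332 UMIs, or 93.2 and 1403 CPM (3.91 [3.67 to 4.17]). Gnb2, a widely expressed beta subunit named after its value was seen, had 65 and 739 UMIs (2.82 [2.46 to 3.21]). After thinning, Gnb3 was in 5.89% (4.61 to 7.40) and 67.3% (65.0 to 69.6) of WT and KO rods and in 72.8% and 77.1% of bipolar cells, which need it for their own signaling. Gnb2 was in 2.48% and 20.7% of rods, 3.97% and 3.82% of bipolar cells and 27.2% and 24.7% of Müller glia, so KO rods lay between those types. Müller glia, which do not use Gnb3, had it in 1.63% and 6.99% of cells, a smaller share than that of KO rods; the part of RNA from outside was not tested. Summed, Gnb1 stayed the most abundant beta subunit in KO rods, at 5266 CPM beside 1403 of Gnb3. Both Gnb3 and Gnb2 were higher in KO rods at P19 (1.78 and 1.51) and at P25 (3.71 and 1.03), when Gnb1 was at -0.01 and 0.33.

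A list of outer segment genes shares Slc24a1 with the cascade. Of 15 tested, 1 was past 1.5-fold upward (6.67%, beside 5.99% of all genes) and 2 downward (13.3%, beside 3.83%), Slc24a1 among them, with a median of -0.08. The median was thus closer to that of all genes than in phototransduction, but the sum, which includes Cnga1 and Rp1 of the rule, was lower, at 25492 and 19522 CPM. Rom1 and Prph2, which shape the rims of the discs, were at -0.56 and -0.52, while Impg2, of the matrix between photoreceptors and named after its value was seen, was at 1.45. Among 25 genes of the connecting cilium the median was 0.02, and 4 were past 1.5-fold upward (16.0%, beside 5.99% of all genes) and none downward (beside 3.83%). Arl6, a GTPase of the BBSome, had 934 and 3773 UMIs (1.33 [1.23 to 1.44]), and Ift57, of intraflagellar transport and also named after its value was seen, 109 and 345 (0.98). Rpgrip1, a scaffold of the cilium, was at -0.33, so the difference of Arl6 was not shared by the whole cilium. At the rod terminal 1 of 24 genes was past 1.5-fold upward (4.17%, beside 5.99% of all genes) and none downward (beside 3.83%), and the median was -0.14: Snap25, of vesicle fusion, was at -0.16 and Cplx4, a complexin of ribbon synapses, at 0.27. Retinoid genes held no gene past 1.5-fold among 5 tested (beside 9.82% of all genes), with a median of -0.34. Rdh12, a dehydrogenase that detoxifies retinal, was at -0.56, Dhrs3, which reduces it, at -0.34, and Rbp3, which carries retinoids between cells, at 0.49.

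Transcription factors of photoreceptors gave a median of 0.01 over 13 genes tested. None was past 1.5-fold upward (beside 5.99% of all genes) and 2 were downward (15.4%, beside 3.83%): Rorb and Mef2c, an activator of rod genes, with 611 and 600 UMIs (-0.71 [-0.87 to -0.54]). Crx, the main activator of photoreceptor genes, was at -0.53 [95% interval -0.69 to -0.38], while Neurod1 and Otx2, which keep photoreceptors alive, were at 0.56 [0.46 to 0.66] and 0.37 [0.10 to 0.65], and Mef2d, the partner of CRX, at 0.47. Rorb and Crx were thus below 0, whereas Neurod1 and Otx2 lay above it. The repressors Samd7 and Samd11 were at 0.08 and -0.20, Casz1, a regulator of rod chromatin, at 0.04, the homeodomain factor Rax at 0.05, the zinc finger protein Zfp385a at 0.01, Ankrd33, a partner of CRX, at -0.04 and the homeodomain factor Meis2 at -0.12. Esrrb, a nuclear receptor of rods (-0.40), and Thrb, one of cones (-0.33), had too few UMIs to be tested, and most of these factors therefore lay within 1.5-fold.

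The machinery of protein synthesis and respiration lay slightly above the median of all genes. Of 82 ribosomal protein genes, 63 were above 0 (beside 1718 of all 3055), the median was 0.15, and their sum was 60618 and 67314 CPM. Rpl13, Rpl13a and Rpl41, the most abundant of the large subunit, were at 0.21, -0.09 and 0.28, and Rps14 and Rps29, of the small one, at 0.31 and 0.36. Only 1 ribosomal gene, Rpl10, named after its value was seen, was past 1.5-fold (beside 9.82% of all genes). The difference was thus small and spread over many genes. It was larger at P19 (0.37) and stood at 0.19 at P25. Translation factors had a median of 0.13 over 39 genes, with Eif2s2, a subunit of the initiation factor eIF2, at 0.84 [0.70 to 0.98] and Eef1a1, which brings tRNA to the ribosome, at 0.19 and Eif1, which selects the start codon, at 0.46. For the 78 nuclear genes of the respiratory complexes the median was 0.10, with 57 above 0, after 0.33 at P19 and -0.05 at P25. Among the most abundant were Cox4i1 and Cox6c, of cytochrome oxidase, at 0.28 and 0.17, and Ndufa4, which joins the same complex, at -0.33. The 11 mitochondrially encoded genes went the other way, at -0.10, with a sum of 31120.3 and 28121 CPM; mt-Co3, mt-Atp6 and mt-Cytb, the most abundant, were at -0.32, -0.12 and 0.03.

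Glycolysis, on which rods depend, had a median of -0.10 over 23 genes, with the enzymes Aldoa at -0.10, Gapdh at -0.16 and Pkm at -0.32. Hk1, the hexokinase that neurons share, was past 1.5-fold upward (0.79 [0.61 to 0.97]) and the lactate carrier Slc16a1 downward (-0.79 [-1.07 to -0.52]), both named after their values were seen. With 1 of 23 genes in each direction, the list was close to the shares over all genes. Genes of the unfolded protein and integrated stress responses had a median of 0.35 over 17 tested, with 13 above 0 (beside 1718 of all 3055) and 4 below. Of the 17, 2 were past 1.5-fold upward (11.8%, beside 5.99% of all genes) and none downward (beside 3.83%). Asns, the asparagine synthetase that ATF4 induces, had 20 and 199 UMIs (2.60 [1.97 to 3.38]). With 20 UMIs in WT rods, Asns reached the number asked of tested genes only through the KO rods, so it had to differ. The upward share of this list therefore gives no support beyond the genes themselves. Hspa5, the chaperone of the endoplasmic reticulum, had 216 and 529 UMIs (0.61 [0.38 to 0.85]). Asns and Hspa5 were both named after their values were seen. Atf4, the regulator of that response, was at 0.41, Hsp90b1, another chaperone of the reticulum, at -0.01, and Selenok, a selenoprotein of its membrane, at 0.32. The median was 0.36 at P19 and 0.47 at P25, so the median of this list was above 0 at every age.

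Cytosolic chaperones were at 0.00 over 24 genes, with Hsp90aa1 at -0.47, Hspa8 at 0.11 and the cochaperone Dnajb6 at 0.10. The 39 genes of the proteasome and ubiquitin had a median of 0.10, with 32 above 0 (beside 1718 of all 3055). None was past 1.5-fold (beside 5.99% of all genes upward and 3.83% downward). The polyubiquitin gene Ubb was at 0.05 and the proteasome subunit Psma3 at 0.35, so the differences were small and mostly upward. Of 20 antioxidant genes 3 were past 1.5-fold upward (15.0%, beside 5.99% of all genes), among them the metallothionein Mt1 with 177 and 602 UMIs (1.08 [0.84 to 1.33]), and 1 downward (beside 3.83%), Nxnl1, a thioredoxin-like factor of photoreceptors named after its value was seen (-0.63). Fth1, the heavy chain of ferritin, was at 0.05, Gpx4, which repairs lipid peroxides, at 0.15 and Nxnl2, a relative of Nxnl1, at -0.28. Of 14 genes of cell death tested, none was past 1.5-fold upward (beside 5.99% of all genes) and 1 was downward (7.14%, beside 3.83%), Xiap, an inhibitor of caspases named after its value was seen (-0.72). The median was -0.04, with the mitochondrial carriers Slc25a4 and Slc25a5 at 0.13 and -0.25 and the pore Vdac1 at -0.19. Malat1, a nuclear RNA and the most abundant of all in rods, was at 108141 and 118759 CPM (0.14), so this nuclear RNA took a similar share in both groups.

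**Figure D4:**
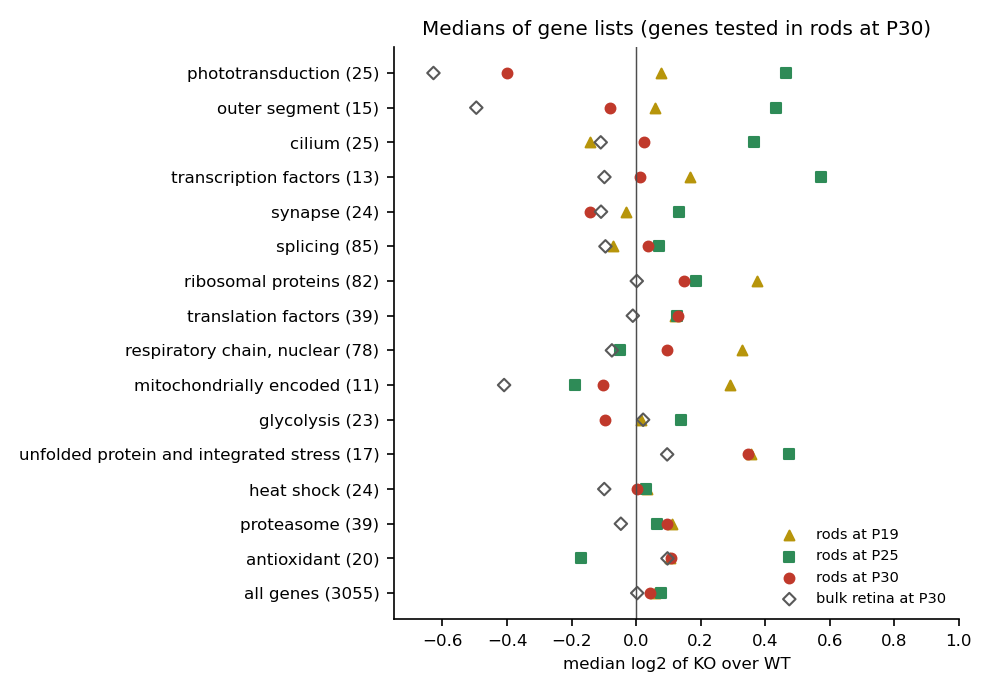
Median log2 ratio of KO over WT (x axis) for 15 gene lists and all genes (y axis, with the number of genes tested in P30 rods). Red circles are rods at P30, yellow triangles rods at P19, green squares rods at P25 and open diamonds bulk retina at P30; in P30 rods phototransduction was at -0.40 and the unfolded protein and integrated stress responses at 0.35.

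RNA of MHC class I was higher in KO rods. H2-K1, a heavy chain, had 5 and 236 UMIs (4.74 [95% interval 3.64 to 6.52]), and Bst2, which tethers virus particles and answers to interferon, 6 and 233 (4.49 [3.45 to 6.06]). H2-D1, another heavy chain, and B2m, the light chain, both named after their values were seen, had 54 and 700 (3.00 [2.61 to 3.44]) and 18 and 182 (2.62 [1.96 to 3.44]). After thinning, H2-K1 was in 0.171% and 7.14% of rods and 1.32% and 2.65% of bipolar cells, Bst2 in 0.342% and 7.26% and 0% and 0.588%, and H2-D1 in 2.48% and 17.7% and 5.30% and 10.0%. These 3 passed the bipolar background in KO rods, but B2m, at 0.598% and 1.97% of rods and 0.331% and 3.53% of bipolar cells, did not. In WT and KO Müller glia H2-K1 was in 5.98% and 15.1%, H2-D1 in 9.78% and 24.7%, B2m in 18.5% and 45.2% and Bst2 in 3.26% and 6.45%, so KO rods lay below KO Müller glia in all but Bst2. Only 4 of 28 interferon and MHC genes had enough UMIs to be tested, and they reached that number through the KO rods, with 54 or fewer UMIs each in WT rods, so that they had to differ. The same holds for Edn2, Cebpd and Gadd45b among 6 tested genes of photoreceptor stress, of which 5 were past 1.5-fold upward, and the medians of these lists give no support beyond the genes themselves.

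Markers of other cell types were summed as a guide to foreign RNA in the rods, and their part in the result was not tested. Microglia markers, none of 15 of which was tested, summed to 98.6 and 302 CPM in WT and KO rods. The sums include genes of the rule, which limited them, and the counts do not. Of Müller glia, 4 of 17 were tested. Of these, 3 were past 1.5-fold upward (beside 5.99% of all genes) and none downward (beside 3.83%), while Car2 was at -0.11. The sum was 1023 and 1320, led by Car2. Clu, a secreted chaperone, was at 1.42 and Dbi, a carrier of acyl-CoA, at 0.83, so some of these markers were higher in KO rods. The Müller markers Glul and Rlbp1, which the rule limited, were at -0.66 and -1.05. Whether the RNA of Clu and Dbi came from glia or from the rods was not tested. Bipolar markers (3 of 16 tested) summed to 624 and 633, led by Gng13, amacrine markers (4 of 13) to 482 and 337, led by C1ql1 with Slc18a3 at 0, and horizontal markers (3 of 7) to 539.7 and 370.2, led by Calb1. Ganglion cell markers (0 of 10) summed to 134 and 94.8, led by Nefl, and pigment epithelium markers (3 of 15) to 4029.8 and 4423, led by Cst3 with Best1 and Mlana at 0. Cone markers (6 of 17) summed to 3058 and 4229, led by Guca1a, which rods express too, with Cnga3 at 0. The higher sum came from Gnb3, at 93.2 and 1403 CPM, and the median of the 6 tested was -0.07. Vascular markers (1 of 13) summed to 1420.5 and 1385, led by Vtn, but Cldn5, of endothelial junctions, went from 5 to 115 UMIs and Ly6c1, of endothelial surfaces, from 2 to 144. The hemoglobin genes Hbb-bs and Hba-a1, named after their values were seen, had 126 and 1032 and 92 and 643 UMIs (2.35 and 2.12), with log2 ratios of only 0.36 and 0.34 without the 5% deepest rods of each library. Much of the hemoglobin difference at P30 thus lay in the deepest rods. The log2 ratios of Hbb-bs and Hba-a1 were 7.48 and 7.48 at P19 but -0.84 and -1.18 at P25, so their direction was not the same at each age.

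With the ages as replicates, rods were compared over P19, P25 and P30 by limma, with age in the model and 2 residual degrees of freedom. Of 7779 genes, 108 (1.39%) passed an adjusted p of 0.05, 92 higher (1.18%) and 16 lower (0.206%, Gad1 of the rule among them) in KO rods. Markers of other cell types differed at the earlier ages too, and their part was not tested. Microglia markers summed to 24.9 and 27.5 CPM in WT and KO rods at P19 and to 22.9 and 854 at P25. Amacrine markers summed to 1490 and 767 at P19 and to 1756 and 499 at P25. Fgf2 (log2 fold change 3.65, adjusted p = 0.00153), Gadd45b (3.22, adjusted p = 0.00466), Cebpd (4.56, adjusted p = 0.00871), Stat3 (1.83, adjusted p = 0.00871), Asns (2.30, adjusted p = 0.00744) and Rbm17 (1.84, adjusted p = 0.00871) were higher at 3 of 3 ages. So were Arl6 (1.45, adjusted p = 0.0103), Edn2 (4.71, adjusted p = 0.0169), Pcolce (4.44, adjusted p = 0.0158), Gnb3 (3.12, adjusted p = 0.0174) and E2f6 (3.23, adjusted p = 0.0295), so genes of varied roles rose. Lower at 3 of 3 ages were Adipor1 (-2.27, adjusted p = 0.0103), the X-linked 3010001F23Rik (-1.57, adjusted p = 0.0191), Rabgef1 (-1.10, adjusted p = 0.024) and Mef2c (-0.95, adjusted p = 0.0326), though for the X-linked gene sex and genotype cannot be told apart at P25. The number of lower genes, 16 here, was not stable. It was 5 with at least 3 rod genes and 41 with at least 5. Leaving out an age gave 1 (without P19), 39 (without P25) and 1 (without P30). Sag (0.68, adjusted p = 0.332), Gnb1 (-0.21, adjusted p = 0.769) and Rorb (-0.76, adjusted p = 0.234) did not pass, nor did any of 26 phototransduction genes, and Gnb2 was just outside (1.77, adjusted p = 0.0517). Of the genes past 1.5-fold in P30 rods, 51 of the 183 higher ones and 11 of 115 lower ones (without genes of the rule) passed over the ages in the same direction. P30 is part of that test, which gave only 5 genes without it. A test by limma of whether the genotype effect differed between rods and bipolar cells of the same libraries gave 0 of 7253 genes (0.00%), with 669 at an unadjusted p below 0.05 and no other tool run. Its estimates for Gnb3 (2.88), Gadd45b (2.57), Asns (2.34) and Arl6 (1.35) were positive, meaning a larger difference in rods, and that for Pax6, a factor of amacrine cells, was negative (-1.36). Each had an adjusted p of 0.054, the lowest, which 15 genes shared, 12 of them positive.

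Bulk retina at P30, which the rule did not touch, gave a replicated measure with 4 libraries per genotype. In bulk, fewer cells of a type and less RNA per cell cannot be told apart. By edgeR's quasi-likelihood test 1946 of 19381 genes (10.0%) were DEGs, 1357 higher (7.0%) and 589 lower (3.04%); with library totals in place of TMM the split was 1802 and 390. Values of all 4 libraries did not overlap between genotypes in 6077 genes (31.4%). Adipor1 had 605, 601, 589 and 607 CPM in WT and 142, 138, 136 and 138 in KO libraries (log2 fold change -2.11, standard error 0.039, adjusted p = 4.6e-13), low in every KO library. Asah1 was slightly higher (0.17, adjusted p = 0.0206) and Adipor2 slightly lower (-0.16, adjusted p = 0.0454), both within 1.5-fold, and Acer3 did not pass (0.13, adjusted p = 0.174). Of the 183 genes higher in P30 rods, 179 were tested in bulk, where 58 were DEGs upward (32.4%) and none downward, and 160 were above 0. Of 113 tested among the lower ones, without genes of the rule, 63 were DEGs downward (55.8%), none upward, and 5 above 0. Rods and whole retina therefore differed mostly in the same direction. Edn2 had 3.78, 2.79, 2.68 and 3.03 CPM in WT and 349.8, 341, 335 and 379.6 in KO libraries (6.83, standard error 0.081, adjusted p = 8.8e-15), and Cebpd 5.75, 6.87, 5.69 and 6.20 and 85.9, 87.7, 90.6 and 100.2 (3.89, standard error 0.075, adjusted p = 5.3e-13). All KO values lay far above all WT values for both.

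The opposite differences of the beta subunits were also seen in bulk. Gnb3 had 381, 319.6, 356 and 338 CPM in WT and 1422, 1388, 1414 and 1541 in KO libraries (2.05, standard error 0.065, adjusted p = 8.0e-11, edgeR), and Gnb1 5038, 4759, 4469.8 and 4565 and 2791, 2642, 2684 and 2409 (-0.84, standard error 0.070, adjusted p = 1.0e-06), high in all KO libraries for Gnb3 and low in all for Gnb1, without overlap. Fgf2 had 18.8, 18.6, 18.4 and 19.7 and 221, 224, 268 and 246 CPM (3.67, standard error 0.064, adjusted p = 2.6e-13), again without overlap. Rorb had 341, 440.3, 249.9 and 249 and 222, 188, 192 and 179 (-0.71, standard error 0.149, adjusted p = 0.00254), lower in every KO library though the WT libraries were spread. Sag differed from these 4 genes, with 5107, 4707, 5114 and 4946 and 4863, 4934, 5413 and 5009.6 CPM (0.02, standard error 0.067, adjusted p = 0.82, edgeR). The groups overlapped, so Sag took a similar share of whole retina in both genotypes, unlike its higher share in KO rods. It was still the highest of the phototransduction genes tested in bulk. Of 26 phototransduction genes 14 were DEGs downward (beside 3.04% of all genes) and none upward (beside 7.0%), with a median of -0.63. Of 16 outer segment genes 7 were DEGs downward (beside 3.04% of all genes) and 1 upward (beside 7.0%), with a median of -0.50. All 7 genes of the rule were DEGs downward in bulk as well (beside 3.04% of all genes), with a median of -0.78. The heavy chains H2-K1 (2.47, adjusted p = 8.8e-10, edgeR) and H2-D1 (1.79, adjusted p = 5.0e-08) rose, but microglia also express them. Of 15 microglia markers 15 were DEGs upward (beside 7.0% of all genes). Ribosomal proteins had a median of 0.00 over 82 genes, so their small difference in rods was not seen in bulk. They gave 0 DEGs (beside 10.0% of all genes), but that call asks for 1.5-fold and could not show so small a difference. Hbb-bs (-0.29, adjusted p = 0.6) did not change in bulk by edgeR either.

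Promoters of some of these genes were read for short motifs in GRCm38.p6, with RefSeq as the source of positions, from 250 bases before to 50 after the start. TAATCC, the motif that CRX and OTX2 bind, was searched on both strands, as were the others. It was held by 9 of 16 phototransduction genes with an entry, in 9 of 19 promoters (47.4%), beside 7.06% of all 32851 promoters and 7.85% of those of genes tested in rods. The 9 were Aipl1, Cngb1, Gnb5, Gngt1, Guca1a, Gucy2e, Ppef2, Sag and Unc119, which include genes above and below 0 in KO rods, so the motif did not separate them. The motif of interferon regulatory factors, GAAA followed by any 2 bases and GAAA again, was in B2m and Bst2, 2 of 4 genes. This was 2 of 5 promoters (40.0%), beside 3.44% of all and 2.95% of those of genes tested in rods. The 4 genes were tested only because they were high in KO rods, so this share gives no support. TGATGNAA, the element of ATF4 and CHOP, was in Asns and Herpud1, in 2 of 15 promoters (13.3%). All promoters held it in 3.97% and those of genes tested in rods in 2.18%, and Asns too was tested only through the KO rods. The sequences of 6 promoters are shown because they hold these motifs in genes discussed here, each written from the gene's own strand with the match in capitals: Sag (chr1:87803430-87803729, plus strand), Gngt1 (chr6:3993758-3994057, plus), Ppef2 (chr5:92256229-92256528, minus), Bst2 (chr8:71537423-71537722, minus, 2 overlapping matches), B2m (chr2:122147437-122147736, plus) and Asns (chr6:7693160-7693459, minus). A match is a description, not a site or a cause.
Sag: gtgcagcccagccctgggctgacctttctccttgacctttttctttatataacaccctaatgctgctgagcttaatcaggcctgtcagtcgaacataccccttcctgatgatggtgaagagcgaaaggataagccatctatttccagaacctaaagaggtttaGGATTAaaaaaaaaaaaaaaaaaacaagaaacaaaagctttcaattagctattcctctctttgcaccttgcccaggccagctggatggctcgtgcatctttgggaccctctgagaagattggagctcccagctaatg
Gngt1: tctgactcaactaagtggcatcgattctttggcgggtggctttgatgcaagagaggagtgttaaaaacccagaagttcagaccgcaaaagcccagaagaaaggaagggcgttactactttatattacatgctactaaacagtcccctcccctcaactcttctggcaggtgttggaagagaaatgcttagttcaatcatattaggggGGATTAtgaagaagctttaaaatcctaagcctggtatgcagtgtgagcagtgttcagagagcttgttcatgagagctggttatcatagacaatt
Ppef2: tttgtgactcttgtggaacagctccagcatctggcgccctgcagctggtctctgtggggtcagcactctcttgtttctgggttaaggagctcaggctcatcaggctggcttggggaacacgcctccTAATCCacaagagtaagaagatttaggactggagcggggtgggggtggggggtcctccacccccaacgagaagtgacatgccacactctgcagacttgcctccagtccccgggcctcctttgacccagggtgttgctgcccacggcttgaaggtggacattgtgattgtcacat
Bst2: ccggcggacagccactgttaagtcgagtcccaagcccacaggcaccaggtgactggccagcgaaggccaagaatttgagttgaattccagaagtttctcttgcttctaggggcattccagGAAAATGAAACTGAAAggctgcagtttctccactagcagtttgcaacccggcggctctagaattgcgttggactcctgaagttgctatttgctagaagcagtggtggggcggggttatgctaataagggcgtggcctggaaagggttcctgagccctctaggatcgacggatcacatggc
B2m: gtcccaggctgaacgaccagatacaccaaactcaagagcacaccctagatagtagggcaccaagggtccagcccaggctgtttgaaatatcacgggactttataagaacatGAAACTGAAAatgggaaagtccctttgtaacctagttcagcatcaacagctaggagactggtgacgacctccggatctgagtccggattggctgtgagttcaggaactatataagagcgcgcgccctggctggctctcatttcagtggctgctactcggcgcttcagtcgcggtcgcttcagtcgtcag
Asns: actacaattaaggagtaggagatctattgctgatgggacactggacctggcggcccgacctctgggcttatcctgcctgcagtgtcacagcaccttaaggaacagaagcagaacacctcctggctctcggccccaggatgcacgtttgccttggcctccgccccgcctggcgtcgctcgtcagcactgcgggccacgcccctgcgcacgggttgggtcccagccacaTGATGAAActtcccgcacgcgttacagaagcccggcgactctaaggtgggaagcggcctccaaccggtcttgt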

How the data were processed

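Single-cell libraries of the retina (1 per genotype at P19, P25 and P30) and bulk libraries of the retina at P30 (4 per genotype) were analysed, grouped by the genotype, age and replicate that the labels give. For the single cells, per the labels, the authors ran Cell Ranger 2.1 and Seurat 3.2.2 against mm10, and they deposited values on a natural log scale, 1 table of 26764 cells, with cell filters that the sources used here do not give. After 1 inverse step every cell summed to 10000. After 2 inverse steps and division by the smallest step of each cell, all but 7 of 46532493 values above 0 were whole to within 0.01, and none of the 7 was at P30; these recovered UMI counts were used throughout. For bulk retina the authors deposited raw counts of reads for 53801 genes per library, between 22734843 and 35118164 reads in all. Values of the pigment epithelium were not used.

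UMIs were summed over the rods of each library, divided by the library's rod total and compared as log2 ratios with 0.5 UMIs added, for genes with at least 200 UMIs, by Python 3.11.15, numpy 2.4.6, scipy 1.17.1 and pandas 2.3.3; figures were drawn with matplotlib 3.10.9. Intervals were Clopper-Pearson for shares, exact Poisson for sums and conditional binomial for ratios. Cells were thinned to 800 UMIs by random draws without replacement. Bipolar cells and Müller glia were cells with at least 3 of 8 markers and fewer than 4 rod genes of the rule. No doublet caller was run; the limit on genes of other cells and the removal of the deepest 5% of rods stood in for it. Barcodes of the P30 libraries tend to begin with other letters than those of P19 and P25, although the labels give the same chemistry for all. This did not hold for every barcode, since WT P19 and KO P30 shared 1, as did KO P25 and WT P30.

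In R 4.3.3, rods over the ages were tested with limma 3.58.1 (trend, log2 CPM with a prior count of 2), because the deposited values are logarithms; edgeR 4.0.16 on the recovered counts was an alternative. Bulk counts were tested with edgeR's quasi-likelihood test after TMM and its default filter (19381 genes, common biological coefficient of variation 0.0921), with DESeq2 1.42.0 as an alternative. All adjusted p are from the Benjamini-Hochberg method over all genes tested, and a DEG also had a fold change of at least 1.5. All fits were tested on simulated data. In bulk, libraries with the same replicate number deviated from their group means together (correlations 0.218, 0.172, 0.157 and 0.173), and KO libraries 1, 2 and 3 matched the WT library of their own number best but 4 matched 3. A replicate block by number was therefore an alternative, by the data and not by the labels. Xist was high (at least 2055 CPM) in replicates 3 and 4 of both genotypes and low (at most 3.88) in 1 and 2, so the numbers follow sex-linked genes.

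The members and the 38 gene lists were chosen with earlier results of these data known. Named genes are the 12 highest and 12 lowest ratios in P30 rods, without genes of the rule and 6 sex-linked genes (Xist, Tsix, Ddx3y, Eif2s3y, Kdm5d and Uty); the 3 most abundant members of lists discussed; members of phototransduction and of the transcription factors with at least 50 UMIs; adiponectin receptors and ceramidases (Adipor1, Adipor2, Asah1, Acer3); Edn2, Fgf2, Stat3, Bcl3 and Socs3; and Xist and Ddx3y. Others named within a count of few genes, or stated as such, were chosen after their values were seen. Some genes that the rule would name are not reported by name. The alternatives changed the rule, the thinning, the scaling, the weight of cells, the minimum of UMIs, the prior count, the tool, the libraries used and the replicate block.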

Additional observations from a re-analysis of the deposited data

Results flagged for a closer look

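In 7 of 106 groups of 4 bulk libraries, 1 library lay far from the other 3 by Dixon's ratio of its gap to the range of the group, and chance flags about 1 in 20 groups. Cnga1 had 408 CPM in KO replicate 4 and 522 to 539.9 in the other KO libraries (ratio 0.867), and Rp1 994 in the same library and 1272 to 1311 in the others (0.877), so 2 genes of the rule were lowest in this KO library. Gngt1 had 811 CPM in KO replicate 1 and 732 to 742 in the others (0.868), and Nrl 2078 in WT replicate 1 and 1959 to 1974 in the others (0.874). H2-D1 had 51.4 CPM in WT replicate 2 and 34.4 to 36.5 in the other WT libraries (0.88), and H2-K1 25.0 and 17.4 to 18.5 (0.846), so both heavy chains were highest in the same WT library. Pax6 had 301 CPM in WT replicate 1 and 341 to 348 in the others (0.846), and its WT and KO libraries overlapped. In each of the other 6 genes all KO libraries stayed apart from all WT libraries, and the source of the spread was not tested.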

How the results depend on the processing

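Of the 69 main values under alternatives, 52 stayed, which for counts means within 1.5 times and for shares and medians within the interval of the main value; phototransduction genes kept a negative median (-0.42 to -0.30) and ribosomal protein genes a positive one (0.12 to 0.15) in every setting. Genes past 1.5-fold in P30 rods numbered 300 of 3055 in the report, and 174 of 1699 with every cell thinned before the rule, 1099 of 7096 with at least 50 UMIs, 100 of 1228 with at least 500, and 179 of 1825 with deeper cells thinned and the rods kept, an alternative chosen after seeing the data; each of these tests fewer or more genes by construction. Other settings gave 224 to 331. The share of rods in WT was 41.2% with at least 5 rod genes and 35.7% with no gene of other cells; in KO it was 55.7% with at least 3, 40.5% with at least 5, 40.8% with no gene of other cells and 44.1% after thinning, again by construction of the rule. So the order of the genotypes in this share was not stable.

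Rods over the ages gave 108 genes, but 63 with at least 3 rod genes and 190 with at least 5, and the cause was not tested. Leaving out an age gave 5 (without P30), 25 (without P19) and 142 (without P25). The difference between rods and bipolar cells gave 0 genes, and 34 without P19, 66 without P25 and 0 without P30. In bulk, 1946 DEGs became 5990 with no minimum fold and 1823 to 2023 without single libraries. The replicate block gave 1979, shared 1896 with the fit without it, and changed the call of none of the 53 genes whose bulk value is printed or drawn. Of the list medians, 371 of 378 values stayed, and of named genes 1651 of 1707 in P30 rods, 666 of 689 in bulk and 393 of 449 over the ages. With 1 library per genotype, differences between mice cannot be told from those of genotype at P30. Genes under 200 UMIs were not ranked, and at a median of 1030 to 1071.5 UMIs per rod a share of cells with a UMI is below the share that expresses the gene. RNA from broken cells and fused barcodes was limited by the rule, not removed.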
